A study of Mus musculus with 4 samples.

Results

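The integrin, laminin and basement membrane linker genes are described here in 4 mouse libraries of a single group. They were taken by gene symbol: every integrin alpha and beta chain, every laminin chain, the nidogens Nid1 and Nid2, Hspg2 (perlecan) and Fn1 (fibronectin). This gave 42 of the 21264 genes of the deposited table, namely 18 integrin alpha chains, 9 integrin beta chains, 11 laminin chains and 4 linkers, with fibronectin counted among the linkers. The libraries hold total RNA of satellite cells, which are the resident stem cells of muscle, recovered after transplantation of donor cells. The donors were iPax3 myogenic progenitors made from pluripotent stem cells, with overexpression of NICD3, the intracellular part of the Notch3 receptor. The study asked what separates such satellite cells from those of iPax3 donors without NICD3. Cells without NICD3 are not analysed here, so levels are given with their spread (SD, n = 4 libraries) and compared between genes within each library. What drives NICD3, which host received the cells, how many animals gave each library and whether libraries came from separate animals are not stated in the labels, so each spread or p-value describes these libraries alone and may be technical.

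Integrins are cell surface receptors built from an alpha and a beta chain. They bind matrix proteins outside the cell and connect to actin inside it. Satellite cells lie between the muscle fibre and its basement membrane, a sheet of laminin and collagen IV networks held together by nidogen and perlecan. Laminins are trimers of an alpha, a beta and a gamma chain, and the laminin of adult muscle fibres carries the alpha2 chain encoded by Lama2. The integrin encoded by Itga7 and Itgb1 is the main laminin-binding integrin of muscle, and Itga7 is widely used to sort satellite cells. Fibronectin, bound by the integrin of Itga5 and Itgb1, is known from embryonic and regenerating muscle.

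Depth was 12544138 to 13302916 reads per library, so 1 read was worth 0.0752 to 0.0797 CPM (reads per 1e+06 counted), and for a gene at 0 the floor was 3 counts, 0.226 to 0.239 CPM. Such floors cover counting error only. All 10 satellite cell markers checked reached 1 CPM in every library, with Pax7 at 130 ± 12.4 CPM. So did all 10 endothelial and all 8 muscle fibre markers, and 7 of 8 mural markers, Notch3 among them. The same held for 7 of 10 leukocyte, 5 of 7 glial, 5 of 8 fibro-adipogenic and 5 of 6 tendon markers, and for none of 7 platelet markers. Over all genes of the table, 53.6% did so. The muscle fibre markers summed to 1319, 2593, 2473 and 1354 CPM in replicates 1 to 4, with Acta1 at a mean of 781 CPM. Satellite cell markers summed to 5003, 5440, 5996 and 4817 CPM. The part of muscle fibres in the levels of Itga7, Lama2, Lamb2 and other members was not tested. In such bulk libraries, fewer cells of a type and less RNA per cell cannot be told apart.

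Mean levels of the members ran from 0 for Itgad to 1874 CPM for Fn1, with a median of 9.22 CPM beside 4.83 CPM over all genes. Of the 42 genes, 24 (57.1%) had at least 1 CPM in all 4 libraries, beside 53.6% of all genes in the table. These were 8 of 18 integrin alpha chains, 4 of 9 integrin beta chains, 8 of 11 laminin chains and all 4 linkers. A mean of at least 50 CPM was reached by 14 of 42 genes (33.3%), beside 19.9% of all genes. They were 4 alpha chains, 1 beta chain, 6 laminin chains and 3 linkers. A mean of at least 10 CPM was reached by 20 (47.6%), beside 43.3% of all genes. Only Itgad had no read in any library, against 22.6% of all genes. Levels of different genes are compared below as CPM per kb of annotated exon, since CPM alone favours long genes.

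**Figure D1:**
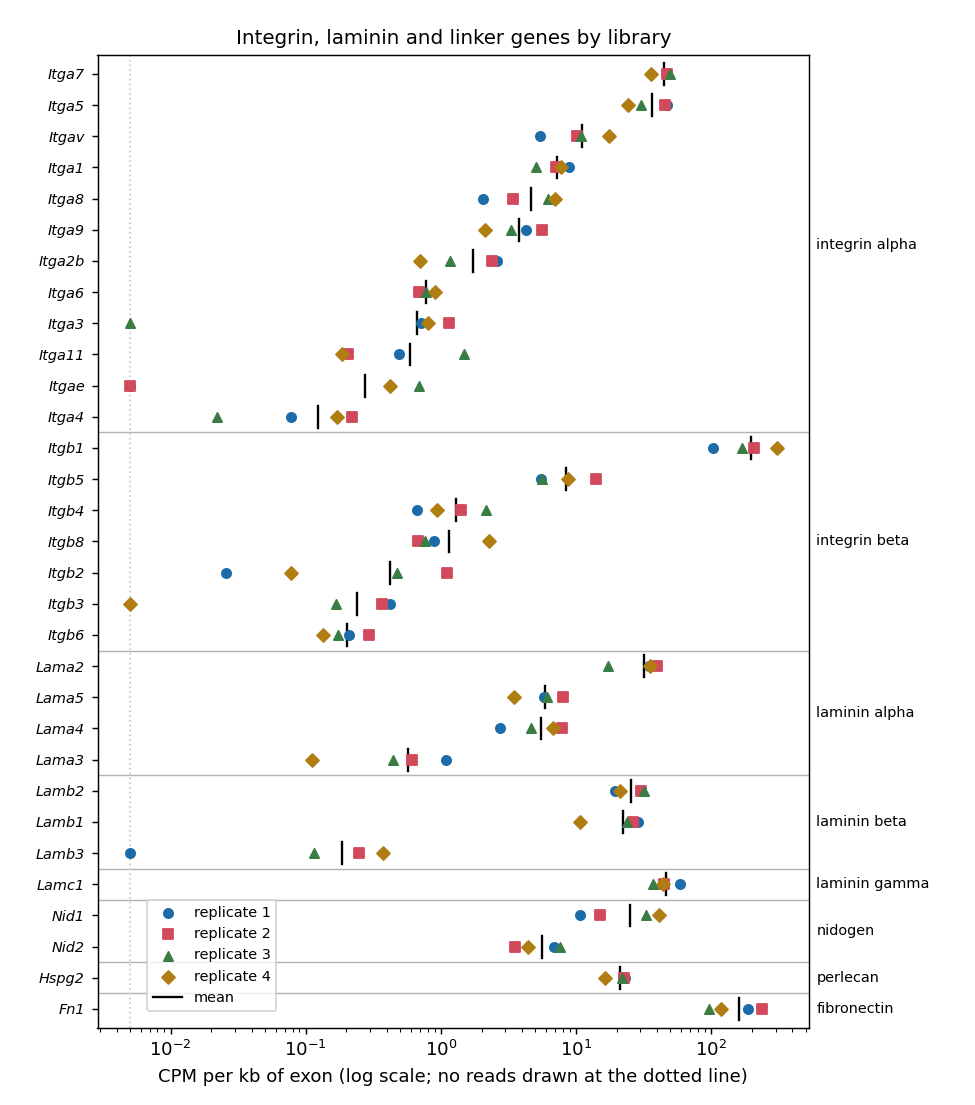
CPM per kb of exon (log axis) in each of the 4 libraries for 31 of the 32 genes with a mean of at least 1 CPM, grouped by role and ordered by mean within a role. Vertical bars are means, and points on the dotted line had no read. Itgb1 (mean 197) and Fn1 (mean 160) stand above all others, and Lamc1 and Itga7 follow at 46.2 and 45.1.

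Ordered by CPM per kb, Itgb1 (197 ± 84.9) and Fn1 (160 ± 64.4) led, followed by Lamc1 (46.2 ± 9.15), Itga7 (45.1 ± 5.99), Itga5 (36.8 ± 11.3) and Lama2 (31.8 ± 9.87). Lamb2, Nid1, Lamb1 and Hspg2 completed the first 10, between 25.7 CPM per kb for Lamb2 and 21.1 for Hspg2. With the longest transcript length Fn1 (225 ± 90.5) stood before Itgb1 (211 ± 90.9), and Itga7 (90.7 ± 12.1) before Lama2 and Lamc1 (54.1 and 50.2). The same 10 genes led with plain CPM, with the length of the longest transcript, with other library scaling, and without any single library. Most places in this order are not settled, since the ranges over libraries overlapped for 40 of the 41 neighbouring pairs. The exception was Fn1, which lay above Lamc1 in 4 of 4 libraries without overlap.

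As the donor cells carry an active Notch domain, which acts through the DNA-binding protein Rbpj, the windows of 250 bases before the start site were searched for its core motif TGGGAA on both strands. RefSeq promoters of GRCm38.p6 were matched by symbol for 26 of 42 members, with 29 windows. RefSeq and GENCODE M21 place some starts differently: 7 windows, of Itga3, Itga9, Itgb6, Itgb8, Lama2 and Lamb3, end at a RefSeq start more than 250 bases inside the GENCODE gene, for Lama2 2.82 kb inside. The motif was found in 7 of all 29 windows, of Hspg2, Itga2b, Lama2, Lamb1, Lamb3 and Nid1, beside 21.6% of 32851 windows of all genes. Lamb3 has the motif in both of its windows, which end 94.3 and 94.5 kb inside the GENCODE gene. The longer form GTGGGAA, which contains TGGGAA, was found in 1 of 29 windows, of Hspg2, beside 5.42% of all windows. GGGCGG, the GC box, was found in 11 of 29 windows beside 32.7%, and CACGTG, the E-box of Myc, in 0 of 29 beside 6.02%. A match says only that these letters are present, and its absence only that they are not in this window. The windows of Itgb1, the most abundant receptor chain, and of 3 matrix genes are shown 5′ to 3′, with the motif in capitals:
Itgb1, chr8:128685404-128685653, plus strand: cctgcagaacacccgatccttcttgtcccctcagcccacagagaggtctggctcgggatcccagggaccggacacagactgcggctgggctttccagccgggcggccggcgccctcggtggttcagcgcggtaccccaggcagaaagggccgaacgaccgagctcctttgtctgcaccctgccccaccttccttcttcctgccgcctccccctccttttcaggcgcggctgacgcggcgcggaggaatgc
Lama2, chr10:27616943-27617192, minus strand: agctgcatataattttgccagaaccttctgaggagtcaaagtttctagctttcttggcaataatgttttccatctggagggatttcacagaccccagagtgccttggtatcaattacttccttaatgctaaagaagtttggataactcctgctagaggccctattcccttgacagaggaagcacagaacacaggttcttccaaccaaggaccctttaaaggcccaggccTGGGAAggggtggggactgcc
Lamb1, chr12:31265043-31265292, plus strand: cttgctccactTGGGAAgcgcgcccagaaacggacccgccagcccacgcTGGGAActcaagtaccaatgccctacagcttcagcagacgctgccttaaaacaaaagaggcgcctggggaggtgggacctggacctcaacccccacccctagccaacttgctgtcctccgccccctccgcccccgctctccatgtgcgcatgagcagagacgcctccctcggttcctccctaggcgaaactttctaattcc
Nid1, chr13:13437352-13437601, plus strand: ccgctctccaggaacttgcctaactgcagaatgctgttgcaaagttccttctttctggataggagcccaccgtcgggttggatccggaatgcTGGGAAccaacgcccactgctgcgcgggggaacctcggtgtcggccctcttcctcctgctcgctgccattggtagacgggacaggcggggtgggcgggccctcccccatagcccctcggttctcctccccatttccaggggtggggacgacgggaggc
Itgb1 holds no copy in this window, Lama2 and Nid1 hold 1 each and Lamb1 holds 2. The Itgb1 window has 21 CpG dinucleotides and 68.0% GC, and the Lama2 window has none and 47.2% GC, beside medians of 6 and 52.4% over all windows.

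Among the alpha chains, Itga7 and Itga5 were the most abundant. Itga7 (ENSMUSG00000025348, chromosome 10, 128933818 to 128958282, GENCODE M21 on the mm10 assembly), a laminin receptor chain of muscle, had 385, 382, 399 and 293 CPM in replicates 1 to 4. Replicates 1 to 3 lay close together and replicate 4 was lowest. Its level of 365 ± 48.5 CPM was higher than that of 98.0% of the genes in the table, and its SD on the log2(CPM + 1) scale was 0.21, the smallest of the 20 members with a mean of at least 10 CPM. Its exons overlap those of Mettl7b on the opposite strand, which had no read.

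Itga6, the laminin receptor chain of many other tissues, which pairs with Itgb1 or Itgb4, had 6.41, 6.24, 7.04 and 8.13 CPM in replicates 1 to 4. Itga3, a laminin receptor chain best known from epithelia, had 4.07, 6.54, 0 and 4.62 CPM. Both were far below Itga7 in every library. In all 4 libraries Itga7 exceeded Itga6, with a mean difference of 5.69 ± 0.34 in log2(CPM per kb + 0.1). The exact two-sided sign-flip test gave an adjusted p of 0.138 over 11 gene pairs (n = 4). That is the smallest value the test gave for any pair: with 4 libraries 2 of 16 sign assignments are always as extreme, so no pair can pass 0.05.

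Itga5, the alpha chain of the classical fibronectin receptor, had 232, 225, 149 and 120 CPM in replicates 1 to 4. Replicates 1 and 2 were higher than 3 and 4. Itga7 exceeded Itga5 per kb in 4 of 4 libraries, by 0.02, 0.05, 0.70 and 0.57 on the log2 scale in replicates 1 to 4 (mean 0.33 ± 0.35, exact sign-flip test, adjusted p = 0.138, n = 4), so that in replicates 1 and 2 the levels were nearly equal. The size of this difference rests on the length used. With the longest transcript, 4.02 kb for Itga7 against 8.09 kb of annotated exon, it was 1.18 ± 0.35.

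Itgav, which pairs with several beta chains and binds fibronectin, vitronectin and latent TGF-beta, had 58.6, 110, 117 and 189 CPM in replicates 1 to 4. It was lowest in replicate 1 and highest in replicate 4, opposite to Itga5. Itgav minus Itga5 was -1.79 ± 1.11 in log2(CPM per kb + 0.1), with the same sign in 4 of 4 libraries, and ran between -3.09 in replicate 1 and -0.47 in replicate 4 (exact sign-flip test, adjusted p = 0.138, n = 4). In plain CPM it was -0.68 ± 1.11 and negative in 3 of 4 libraries, since in replicate 4 Itgav was the higher. The 2 genes differ in transcript GC content, with 43.5% for Itgav and 57.3% for Itga5. Per kb of exon and corrected for GC content and length as described below, the difference was -1.79 ± 0.50, so its spread between libraries was smaller.

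Itga1, a receptor chain for collagens including collagen IV, had 166, 132, 94.1 and 145 CPM. The other collagen receptor chains Itga2, Itga10 and Itga11 were much lower, with means of 0.985, 0.210 and 3.02 CPM. Itga1 and Itga10 share exonic sequence with Gm49395 and Gm42957 on the same strand, which averaged 0.524 and 0.0575 CPM. Their levels may thus be undercounts. Itga11, known from fibroblasts and binding fibrillar collagen, had 2.50, 1.05, 7.58 and 0.957 CPM and was highest in replicate 3. In that library 4 of 6 tendon markers and 5 of 8 fibro-adipogenic markers were also highest, among them Fmod (163 CPM, against at most 11.2 in the others) and Dcn (52.8 CPM, against at most 15.4). The tendon markers summed to 1572, 803, 854 and 489 CPM in replicates 1 to 4, of which Tnc gave 1562, 777, 606 and 468. The fibro-adipogenic markers summed to 5454, 7483, 8289 and 6758 CPM, of which Col3a1 gave 3491, 5206, 5633 and 4065. Others of that list were low, with means of 0.768 CPM for Pdgfra, 1.38 for Lum, 3.15 for Mfap5 and 8.29 for Ly6a. The part of tendon or fibro-adipogenic cells in the level of Itga11 was not tested.

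Itga8, which pairs with Itgb1 and binds nephronectin, had 15.2, 25.4, 45.9 and 51.3 CPM in replicates 1 to 4. It is also known from mural and mesenchymal cells. The 8 mural markers summed to 1713, 723, 952 and 996 CPM, of which Acta2 gave 1143, 287, 483 and 447. Notch3, whose intracellular part is overexpressed in the donor cells, is among them with 168, 191, 162 and 153 CPM, and Tagln averaged 0.311 CPM. Dpt, a fibro-adipogenic marker, had 758, 812, 1386 and 1514 CPM, the same order of libraries as Itga8. It was the only 1 of the 8 markers of that list to be highest in replicate 4, and 5 were highest in replicate 3. Ly6a of the same list had the reverse order, with 18.2, 7.89, 5.13 and 1.91 CPM. The part of either cell type in the level of Itga8 was not tested. Itga9, a receptor chain for tenascin and VCAM1, had 32.7, 42.8, 25.6 and 16.3 CPM, and Itga4, which binds VCAM1 and fibronectin, 1.09, 3.08, 0.306 and 2.39 CPM. Itga4 shares exonic sequence with Cerkl on the opposite strand, and that gene averaged 0.120 CPM.

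By known ligand, the RGD-binding chains (Itga5, Itgav, Itga8 and Itga2b, named for the peptide motif they recognise) made up 48.0 ± 2.77% of all alpha chain CPM per kb and the laminin-binding chains (Itga3, Itga6 and Itga7) 41.1 ± 3.15%. The RGD-binding share was the larger in 3 of 4 libraries, and in replicate 3 it was 44.3% against 45.7%. With the longest transcript length the order turned, to 37.6 ± 2.97% for RGD-binding and 52.4 ± 3.69% for laminin-binding chains. The collagen-binding chains made up 7.11 ± 1.13% and Itga4 with Itga9 3.42 ± 0.99%.

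The beta chains were dominated by a single gene. Itgb1 (ENSMUSG00000025809, chromosome 8, 128685654 to 128733200), the common partner of the muscle alpha chains, had 422, 848, 694 and 1252 CPM in replicates 1 to 4. It was lowest in replicate 1 and highest in replicate 4, with a mean of 804 ± 347 CPM. It made up 93.0, 92.0, 94.7 and 96.1% of all beta chain CPM per kb, a mean of 93.9 ± 1.81%.

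Itgb5, a partner of Itgav in a vitronectin receptor, was next with 19.5, 49.7, 20.1 and 31.2 CPM. Itgb1 exceeded it by 4.52 ± 0.57 in log2(CPM per kb + 0.1) in 4 of 4 libraries (exact sign-flip test, adjusted p = 0.138, n = 4). Itgb8, also a partner of Itgav and known for activating latent TGF-beta, had 9.93, 7.52, 8.42 and 25.1 CPM, highest in replicate 4. Itgb4, the Itga6 partner of epithelia and Schwann cells, had 4.69, 9.85, 15.1 and 6.62 CPM and was highest in replicate 3. Itgb6, an epithelial partner of Itgav, had 1.49, 2.10, 1.22 and 0.957 CPM. The 7 glial markers summed to 417, 367, 562 and 558 CPM in replicates 1 to 4. Their part in the level of Itgb4 was not tested.

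**Figure D2:**
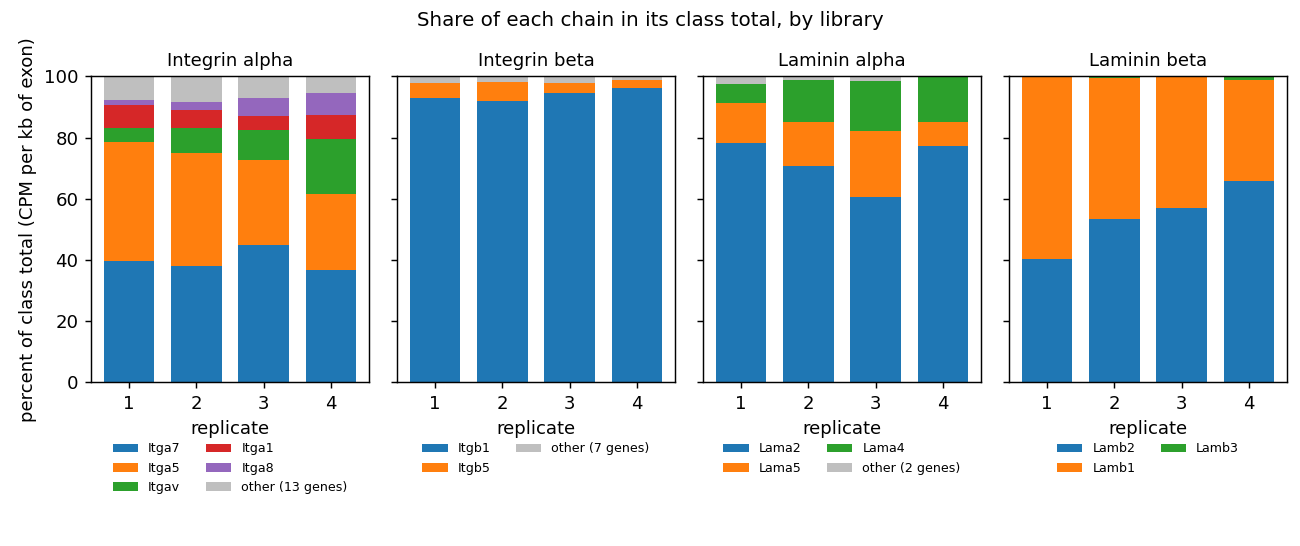
Share of each chain in the total CPM per kb of its class (percent, stacked bars), for replicates 1 to 4. Itga7 and Itga5 made up most of the alpha chains, Itgb1 at least 92.0% of the beta chains and Lama2 60.7 to 78.2% of the laminin alpha chains, while Lamb2 and Lamb1 divided the laminin beta chains.

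Chains of blood cells were low, with no more than 3.38 CPM in any library apart from Itga2b. Itgb2, the beta chain of leukocyte integrins, had 0.0782, 3.38, 1.45 and 0.239 CPM in replicates 1 to 4. Itgam, its alpha partner in myeloid cells, had 0, 0.0752, 0 and 0.638 CPM, and Itgal, Itgax, Itgb7 and Itgb2l had means between 0.020 and 0.348 CPM. Itgam shares exonic sequence with Gm49368 on the same strand, which had no read. Strand cannot separate such genes, so the level of Itgam may be an undercount. Itgae, the alpha chain of an E-cadherin receptor of lymphocytes, had 0, 0, 3.14 and 1.91 CPM. Leukocyte markers were present beside these low levels. The 10 leukocyte markers summed to 29.1, 173, 75.3 and 158 CPM, and Ptprc, which defines leukocytes, had 0.704, 1.58, 0 and 0.957 CPM. Of these markers 8 were highest in replicate 2, as was Itgb2. Their part in the levels of these chains was not tested.

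Itga2b, the alpha chain of the platelet fibrinogen receptor, stood out from the other blood cell chains with 14.2, 13.1, 6.43 and 3.83 CPM in replicates 1 to 4. Its beta partner Itgb3 had 2.50, 2.18, 0.995 and 0 CPM. Both were higher in replicates 1 and 2 than in 3 and 4. The 7 platelet markers summed to 2.42, 5.86, 2.07 and 1.36 CPM, with Gp1bb and Treml1 at 0 reads in every library.

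Among the ligands, fibronectin was the most abundant. Fn1 (ENSMUSG00000026193, chromosome 1, 71585520 to 71653200) had 2202, 2772, 1133 and 1388 CPM in replicates 1 to 4. Replicates 1 and 2 were higher than 3 and 4 without overlap, the same division as for its receptor chain Itga5. Itga2b, Itgb3, Lamb1 and Lama3 were divided in the same way, and a link between Fn1 and Itga5 was not tested. It made up 34.0 to 54.1% of the CPM per kb of all 15 ligand and linker genes, and its mean was higher than that of 99.8% of the genes in the table. Fn1 exceeded Hspg2 by 2.84 ± 0.52 in log2(CPM per kb + 0.1) in 4 of 4 libraries (exact sign-flip test, adjusted p = 0.138, n = 4).

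Laminin genes were led by the chains of the muscle laminin. Lama2 (ENSMUSG00000019899, chromosome 10, 26980036 to 27619758), whose loss causes congenital muscular dystrophy, had 570, 649, 284 and 576 CPM, lowest in replicate 3. Lama4, known from endothelial and other vascular basement membranes, had 33.2, 94.6, 56.5 and 81.6 CPM. Lama5, widespread in adult basement membranes, had 66.6, 91.4, 70.0 and 39.6 CPM. Lama2 made up 71.7 ± 8.09% of laminin alpha chain CPM per kb.

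Per kb of exon, the log2 difference was 2.55 ± 0.75 for Lama2 minus Lama4 and 2.41 ± 0.75 for Lama2 minus Lama5, positive in all 4 libraries (exact sign-flip test, adjusted p = 0.138 each, n = 4). The 10 endothelial markers, of cells known to make Lama4 and Lama5, summed to 376, 283, 129 and 144 CPM in replicates 1 to 4. The sum was largest in replicate 1, where Eng gave 204 CPM and Lama4 was lowest. Of the 10 markers, 8 were highest in replicate 1. The other 2, Tek and Kdr, were highest in replicate 2, as were Lama4 and Lama5. Tek had 19.5, 32.7, 27.3 and 30.3 CPM, the same order of libraries as Lama4. The part of endothelial cells in these levels was not tested.

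Lama1, the alpha chain of early embryonic laminin, had 0.235, 0, 0.0765 and 0 CPM, at or near the floor of 3 counts. Lama3, the alpha chain of epithelial laminin, had 11.8, 6.61, 4.75 and 1.20 CPM in replicates 1 to 4, with the highest level in replicate 1 and the lowest in replicate 4. Lamb3, the beta chain of epithelial laminin, averaged 1.22 ± 1.07 CPM.

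Lamc1, the gamma chain of most laminins, had 487, 369, 306 and 367 CPM and made up 92.9 ± 2.98% of gamma chain CPM per kb. Lamc3 had reads in replicate 2 only, 0.451 CPM. Lamc1 minus Lama2 was 0.58 ± 0.42 on the log2 scale per kb of exon in 4 of 4 libraries (exact sign-flip test, adjusted p = 0.138, n = 4), but -0.061 ± 0.42 with the longest transcript and -0.40 in plain CPM, since Lama2 has 16.3 kb of annotated exon and a longest transcript of 9.61 kb.

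The beta chains Lamb2 and Lamb1 were present side by side. Lamb2, concentrated at the neuromuscular junction in adult muscle, had 119, 185, 193 and 129 CPM. Lamb1, the more widespread chain, had 287, 261, 237 and 106 CPM in replicates 1 to 4, and the ranges of these genes overlapped. Per kb of exon Lamb2 minus Lamb1 was -0.56, 0.21, 0.41 and 0.99 on the log2 scale in replicates 1 to 4. The mean of 0.26 ± 0.64 had its sign in 3 of 4 libraries (exact sign-flip p = 0.5, n = 4), and it was -0.40 ± 0.64 with the longest transcript and -0.44 ± 0.65 in plain CPM.

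Summed over their members, the laminin alpha, beta and gamma chains stood at 43.8 ± 11.4, 48.4 ± 11.4 and 49.6 ± 8.61 CPM per kb. The alpha over beta log2 ratio was -0.15 ± 0.60, alpha over gamma -0.21 ± 0.36 and beta over gamma -0.06 ± 0.50. Each lay within its spread between libraries, and each turned positive, to 0.10, 0.34 and 0.24, with the longest transcript length. In plain CPM alpha over beta was 0.79 and alpha over gamma 0.66.

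Of the nidogens, which connect laminin to collagen IV, Nid1 (chromosome 13, 13437551 to 13512269) had 74.4, 105, 230 and 286 CPM in replicates 1 to 4. Its SD of 0.91 on the log2(CPM + 1) scale was the largest of the 20 members with a mean of at least 10 CPM. Replicates 1 and 2 lay below 3 and 4 without overlap, the reverse of Fn1 and Itga5. Nid2 had 35.7, 18.4, 39.4 and 23.0 CPM, and its exons overlap those of Rtraf (66.3 CPM) on the opposite strand, so reads of these genes cannot be told apart if strand was not used. Nid1 minus Nid2 was 1.99 ± 1.05 in log2(CPM per kb + 0.1), positive in all 4 libraries, between 0.63 in replicate 1 and 3.18 in replicate 4 (exact sign-flip test, adjusted p = 0.138, n = 4). Hspg2, the heparan sulfate proteoglycan perlecan, had 332, 323, 314 and 236 CPM, with replicate 4 lowest.

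**Figure D3:**
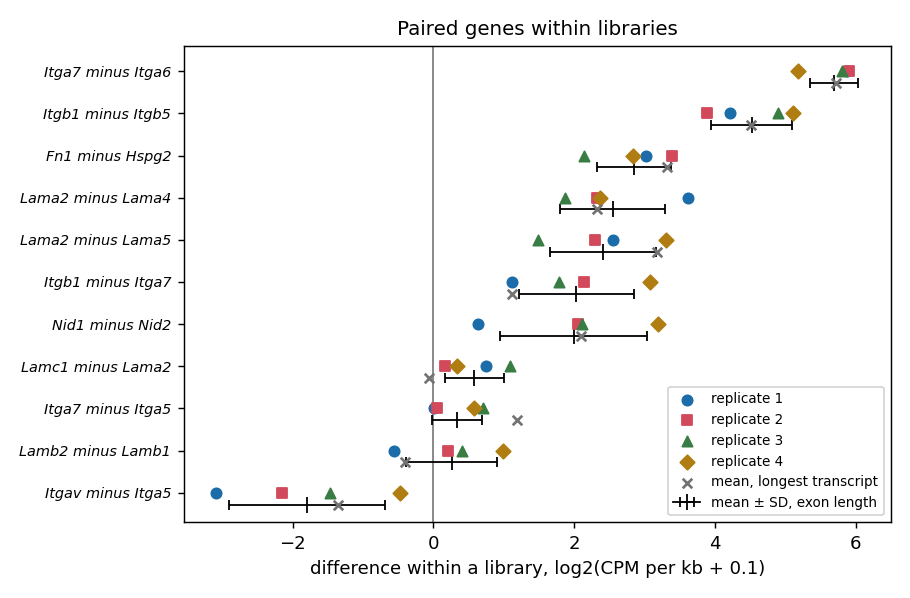
Difference between 2 genes within a library, in log2(CPM per kb of exon + 0.1), for the 11 pairs. Coloured points are the 4 libraries, black bars the mean ± SD, and crosses the mean with the longest transcript length. In 10 pairs all 4 libraries lay on one side of 0, and for Lamb2 minus Lamb1 and Lamc1 minus Lama2 the cross lies on the other side of 0 from the mean, as do their means in plain CPM (-0.44 and -0.40). In plain CPM 8 pairs kept one side of 0 in all libraries.

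Alpha chains were then compared with beta chains, and receptors with ligands. The summed alpha chains stood at 120, 124, 110 and 98.2 CPM per kb in replicates 1 to 4, and the summed beta chains at 111, 226, 180 and 319. The alpha total varied little and the beta total followed Itgb1. The log2 ratio of alpha over beta was 0.11, -0.86, -0.71 and -1.70 in replicates 1 to 4, with a mean of -0.79 ± 0.74. Beta exceeded alpha in 3 of 4 libraries. This direction depends on the length correction, since the mean was -0.24 ± 0.73 with the longest transcript and 0.15 ± 0.68 in plain CPM. Without Itgb1 and Itga7 it was 2.57 ± 0.49, as the other 17 alpha chains together were then higher than the other 8 beta chains.

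Itgb1 minus Itga7, the chains of the main laminin-binding integrin of muscle, was 1.12, 2.13, 1.79 and 3.08 on the log2 scale in replicates 1 to 4. The mean was 2.03 ± 0.82 in 4 of 4 libraries (exact sign-flip test, adjusted p = 0.138, n = 4), and 1.12 ± 0.82 with the longest transcript.

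**Figure D4:**
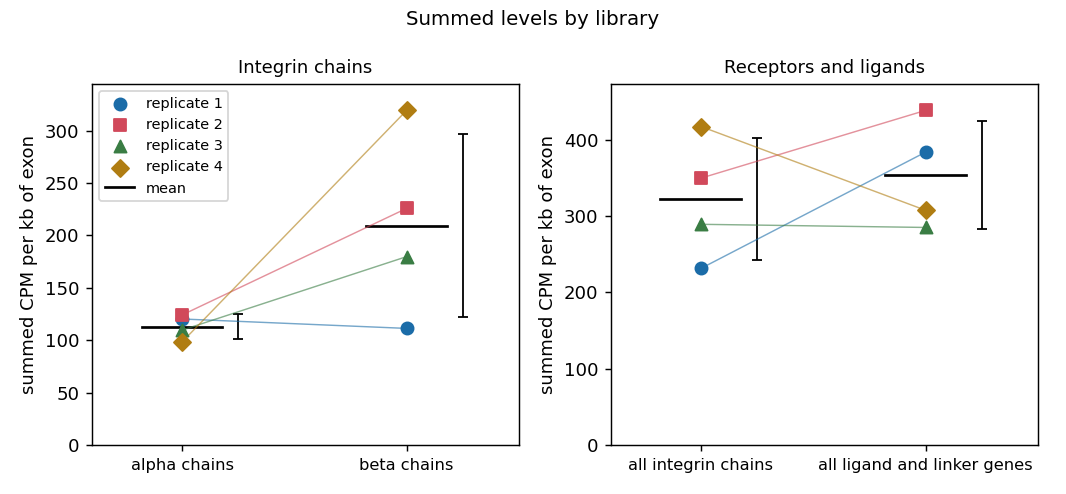
Summed CPM per kb of exon in each library for alpha and beta integrin chains (left) and for all 27 integrin chains and all 15 ligand and linker genes (right). Lines join the values of a library, black bars are means and error bars 1 SD. Alpha chains lie between 98.2 and 124 and beta chains between 111 and 319, while receptor and ligand totals overlap. In plain CPM the mean of alpha over beta turns to 0.15 on the log2 scale.

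All integrin chains together stood at 231, 350, 289 and 417 CPM per kb in replicates 1 to 4, and all ligand and linker genes at 384, 439, 285 and 308. The log2 ratio of receptors over ligands was -0.73, -0.33, 0.02 and 0.44, a mean of -0.15 ± 0.50, with its sign in 2 of 4 libraries. Per kb of exon, receptor and ligand totals thus did not differ beyond their spread, whereas in plain CPM the ratio was -1.12 ± 0.47, negative in 4 of 4 libraries. Without replicate 1 the mean was 0.045. Fibronectin made up much of the ligand side. Against the ligands without Fn1, a comparison added after the values were seen, the ratio was 0.70 ± 0.37 in 4 of 4 libraries, but -0.17 in plain CPM. That comparison keeps Itgb1 on the receptor side. Without the most abundant chain of each side, Itgb1 and Fn1, the ratio per kb of exon was -0.64 ± 0.11.

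The replicates differed along transcript GC content, and several members lay along that axis. Over 9195 genes of at least 10 CPM, replicate 4 minus replicate 1 correlated with GC content with a Spearman coefficient of -0.555 across genes, and over the 20 members of that level with -0.544. Genes are not independent replicates, and these values share the same libraries. Of the 6 members with under 50% GC, 5 were higher in replicate 4 than in replicate 1, and of the 14 others, 5.

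Itgb1, Itgav, Itga8 and Itgb8, with 40.4 to 44.8% GC, were higher in replicate 4 than in replicate 1 by 1.57, 1.67, 1.69 and 1.26 on the log2(CPM + 1) scale. After each library was corrected for GC content and length, these differences were 1.02, 0.68, 0.86 and 0.04. Itga1, at 42.8% GC, went the other way, with -0.20 before and -1.18 after the correction. For Nid1, at 50.4% GC, the difference of 1.93 was 1.94 after the correction. Fn1 and Itga5 had differences of -0.66 and -0.95 before and -0.27 and -0.41 after it. Corrected in this way, alpha over beta chains was -0.80 ± 0.48 with the same sign in 4 of 4 libraries, and receptors over ligands -0.18 ± 0.27. Itgb1 minus Itga7 was then 2.03 ± 0.41, against an SD of 0.82 before. Itga7 minus Itga6 was 5.70 ± 0.05, against an SD of 0.34. The spread did not shrink for every pair: for Lama2 minus Lama4 the SD was 0.75 before and 0.82 after.

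**Figure D5:**
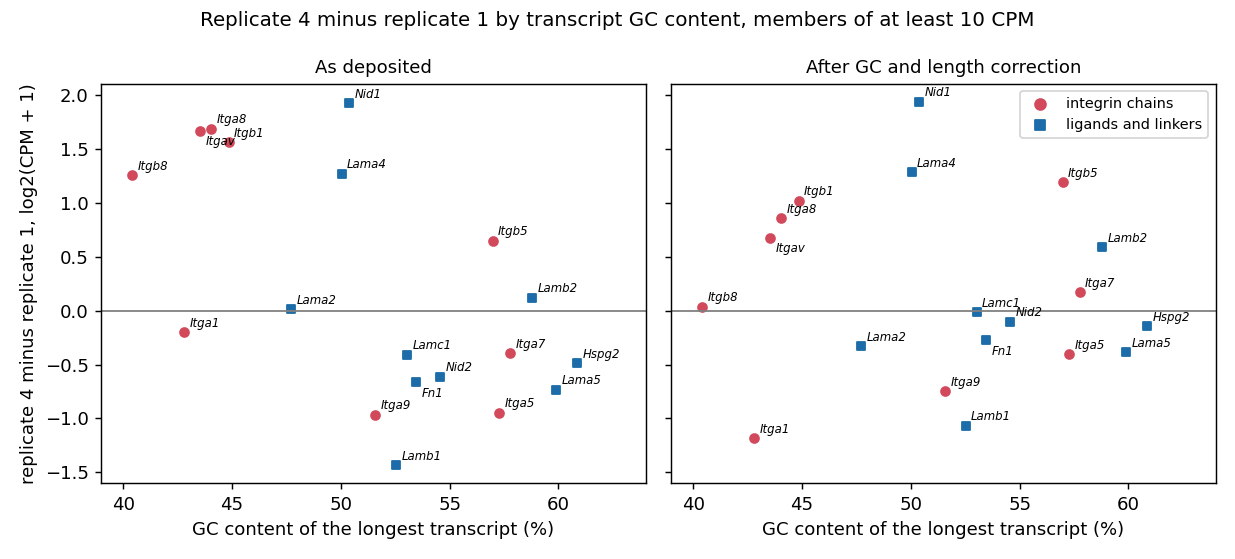
Replicate 4 minus replicate 1 in log2(CPM + 1) against the GC content of the longest transcript (percent), for 19 of the 20 members with a mean of at least 10 CPM, as deposited (left) and after correction for GC content and length (right). The low-GC integrin chains Itgb8, Itgav, Itga8 and Itgb1 lie at 1.26 to 1.69 on the left and at 0.04 to 1.02 on the right. Itga1, also low in GC, lies at -0.20 on the left and -1.18 on the right, and Nid1 at 1.93 and 1.94.

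The spread of the members lay close to that of other genes of their level. None of the 20 members with a mean of at least 10 CPM had an SD of log2(CPM + 1) of 1 or more, beside 2.08% of all such genes, and after the correction for GC content and length none, beside 2.99%. Their median SD was 0.56, beside 0.62 over 9202 genes, and they ranged from 0.21 (Itga7) to 0.91 (Nid1). Of these 20, 7 were lowest in replicate 1 (28.2% of all genes of that level were) and 6 in replicate 4 (31.3%). Replicate 4 was the highest for another 6 of the 20 (30.4% of all genes of that level).

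Among genes for the proteins that connect integrins to actin, 22 of 27 (81.5%) had at least 1 CPM in all 4 libraries, beside 53.6% of all genes, and 5 did not. The list had a median of 62.8 CPM. The most abundant were the actin crosslinker Actn4 (632 ± 142 CPM), Lims1, an adaptor of the integrin-linked kinase complex (288 ± 136 CPM), and the focal adhesion protein Zyx (278 ± 61.7 CPM). Ilk, the integrin-linked kinase that binds the Lims1 protein, was low at 4.93, 1.43, 5.66 and 4.07 CPM, and was named after its values were seen. Both genes for talin, which activates integrins, had reads, with Tln2 at 260 ± 132 CPM and Tln1 at 108 ± 36.7 CPM.

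Of 16 other basement membrane genes, 13 (81.2%) reached 1 CPM in every library, beside the same 53.6%. They were led by Dag1 (2589 ± 266 CPM), the dystroglycan receptor of laminin, Sparc (2356 ± 798 CPM), a collagen-binding protein, and Col4a2, a collagen IV chain (380 ± 128 CPM). Npnt, the Itga8 ligand nephronectin, had 0, 0, 0.995 and 2.15 CPM. Npnt and the talin genes were chosen after their values were seen.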

How the data were processed

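Per the labels' protocols, low-input RNA was extracted with Buffer RLT and nucleic acid beads. A NEBNext low-input kit gave the cDNA, which was made into Nextera XT libraries. The deposited values are log2 CPM, per the file headers, and the values show a constant offset. Trimmomatic 0.33, featureCounts, edgeR, FastQC and mm10 are named, per the submitters' processing notes. How reads were aligned, annotated and assigned to strands is not given in the sources used here. Genes that share exons are therefore uncertain, and 15 members overlap an exon of another annotated gene.

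Each value was raised from the log2 scale and 0.0548 CPM, the offset, subtracted. All (100%) were then whole reads within a relative tolerance of 1e-06. No count model was fitted, as there is 1 group. Lengths, GC content and coordinates came from GENCODE M21, in which all 42 members were found. Levels per kb use summed exon length, with the longest transcript as the alternative. Pairs were tested on log2(CPM per kb + 0.1) by an exact permutation test that flips signs over all 16 assignments (two-sided) and Benjamini-Hochberg adjustment over 11 pairs. Sums over members were not tested. The values of 1 member are not reported here, though it counts in sums and totals. The correction for GC content and length subtracts from each library the median deviation in 20 bins of each. It was fitted to genes of at least 1 CPM. The read recovery was tested on simulated reads. Python 3.11.15, numpy and scipy were used.

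The members, pairs and lists were chosen with earlier results of these data known. Values per library are given for members of at least 50 CPM, for a named set of lower members and for paired genes, and for further members named after their values were seen. The 3 most abundant genes of each pathway list are named.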

Additional observations from a re-analysis of the deposited data

Results flagged for a closer look

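Each of the 32 members with a mean of at least 1 CPM, the 2 role ratios and the 11 gene pairs was searched for a library whose gap to the nearest other library exceeds Dixon's critical value as a share of the whole range over the 4 libraries. Chance gives such a gap in about 1 of 20 searches, and 4 of 45 showed one. Lama2 was low in replicate 3, at 284 CPM, against 570 to 649 CPM in the others. Itga7 was low in replicate 4, at 293 CPM, against 382 to 399 CPM. Hspg2 was low in the same library, at 236 CPM, against 314 to 332 CPM. Itga7 minus Itga6 was lowest in replicate 4 as well, at 5.18, which shares the value of Itga7. Itga7 and Hspg2 have 57.8 and 60.9% GC. After the correction for GC content and length, replicate 4 minus replicate 1 was 0.17 for Itga7 and -0.14 for Hspg2, against -0.39 and -0.49 before it.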

How the results depend on the processing

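No paired analysis was possible because there is 1 group. The mean log2 ratio of alpha over beta chains was 0.15 with no length correction, 2.57 without the most abundant chain of each side and 1.22 as a difference of medians over members of at least 1 CPM, against -0.79 as reported, and, leaving out each library, it ran from -1.09 (without replicate 1) to -0.49 (without replicate 4). That of receptors over ligands was -1.12 with no length correction and -3.40 as a difference of medians, against -0.15 as reported, and from -0.35 to 0.045 without each library, with the highest value without replicate 1. With no length correction, Lamb2 minus Lamb1 was -0.44, Lamc1 minus Lama2 -0.40, laminin alpha over beta chains 0.79, laminin alpha over gamma 0.66 and integrins over ligands without Fn1 -0.17. With the longest transcript, these were -0.40, -0.061, 0.10 and 0.34 for the first 4, and laminin beta over gamma was 0.24. No member had an SD of 1 or more at 10 CPM. At a minimum of 1 CPM there were 3 (Itga3, Itgae and Lama3), and without replicate 2 or 3 there was 1 (Nid1), a range of 0 to 1. Of the 11 pairs, 8 to 11 kept 1 sign in every library over all alternatives. The count of 24 members at 1 CPM ranged from 21 to 29 over other minimums and from 24 to 26 without each library. Members under the floor of 3 counts cannot be ordered at this depth. The longest transcript for levels, leaving out a library for levels and for that count, the GC correction of the ratios, and the ratios without Fn1 and between laminin chains were chosen after seeing the data.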
